A study of Callithrix jacchus with 54 samples.

Results

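GATA2, GATA3, TFAP2A, HAND1, ISL1 and TFAP2B are transcription factor genes that are commonly used to recognise amnion and other tissues formed early under BMP signaling. They were followed through all 27 conditions of an RNA-seq series in which embryonic stem cells of the common marmoset (cjESCs) were induced toward primordial germ cell-like cells. The members were chosen by name, with a working description of a transient peak at 48 h and silence from 96 h to day 70. All 6 were among the 14812 genes of the deposited expression table, under the gene identifiers 100411598, 100389441, 100393261, 100399939, 100385297 and 100396747 in the order given above. Among the 11197 genes that reached a log2(TPM + 1) of 1.5 in at least 1 library were also all 6, but TFAP2B did so in 1 library only. TPM is a level scaled by gene length and by the total of the library.

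GATA2 and GATA3 are zinc finger factors of trophoblast, amnion and blood progenitors, and TFAP2A and TFAP2B are AP-2 factors of surface ectoderm, neural crest and amnion. HAND1 is a basic helix-loop-helix factor of trophoblast, extraembryonic mesoderm and heart, and ISL1 is a LIM-homeodomain factor of heart progenitors and motor neurons that is also found in primate amnion. In primate embryos BMP4 drives early amnion, and it is also the signal that starts germ cell fate. Cells on the way to either tissue can therefore share early target genes.

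All libraries came from the female cjESC line CMES40 carrying the reporters BLIMP1-tdTomato and NANOS3-eGFP, with 2 libraries per condition from biological duplicates. The starting cells were a transgenic line (rtTA, tetO-BLIMP1, SOX17-GR and DD-TFAP2C) kept in the medium DK20FA, the reporter line without these transgenes kept in PESFA, and the latter after 24 h with the WNT activator IM12 and activin A ("pre-treated"). From the transgenic line, BLSE received BMP4, LIF, SCF and EGF, SOX17+BLSE received the same cytokines with SOX17 activated by dexamethasone, and SOX17+LSE received SOX17 without BMP4, each for 12, 24, 48 and 96 h. From pre-treated cells, BLSE+IWR1 added the WNT inhibitor IWR1 to BLSE and BLSE+IWR1+BMS added the inverse agonist of retinoic acid receptors BMS493 as well, for the same times. BLSE+IWR1 was also taken at day 6, and its sorted cells were put with mouse female gonadal somatic cells into xenogeneic reconstituted ovaries (xrOvary) for 20, 40 and 70 days. All induction cultures contained a ROCK inhibitor. cjESCs and pre-treated cells were sorted for TRA-1-60, the cultures of 12 to 48 h were taken whole, and the cells of 96 h and later were sorted for tdTomato, except BLSE at 96 h, which was taken whole. From the starting cells to the whole cultures, and again at 96 h, time and sorting therefore cannot be told apart. Any comparison of another culture with BLSE at 96 h sets sorted against whole cultures. In such bulk samples fewer cells of a type and less RNA per cell cannot be told apart.

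Across the 54 libraries the summed TPM in the table ranged from 790300 to 839203, and 10146 to 12688 genes were above 0. Read depth is unknown, since the table holds no counts. The log2 values of the 2 libraries of a condition correlated across genes with r from 0.977 in xrOvary at day 20 to 0.994, and no 2 libraries were identical. SOX17 itself stood at 368 and 322 TPM in SOX17+BLSE at 48 h against 57.6 and 57.1 TPM in BLSE at 48 h. Tests below are limma's moderated test on log2(TPM + 1) with Benjamini-Hochberg adjustment over 11197 genes, and a call is an adjusted p under 0.01. Differences are in log2(TPM + 1), which understates the change of genes near 0, and are given with their standard error. The course over time was named in the description of the members, so levels over time are given without a test. Tests were made of differences between cultures and of the change of such differences with time. The step from the starting cells to 12 h, the first part of the course, was tested too.

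In the transgenic line, GATA2 stood 5.41 ± 0.33 above the starting cells in SOX17+BLSE at 48 h on the scale of log2(TPM + 1). In the starting cells in DK20FA it stood at 7.84 and 6.69 TPM. In BLSE the libraries held 47.9 and 49.5 TPM at 12 h, 83.9 and 68.5 at 24 h, and 127 and 128 at 48 h. In SOX17+BLSE GATA2 reached 347 and 354 TPM at 48 h, the highest level of the member in any condition and separate from every other library. Without BMP4, in SOX17+LSE, it was 28.8 and 36.2 TPM at 12 h and 83.4 and 90.9 TPM at 48 h. GATA2 thus stood above the starting cells in every transgenic culture at every time, with no overlap between libraries. At 96 h the description did not hold for GATA2. The libraries of BLSE were then at 131 and 209 TPM, those of SOX17+BLSE at 179 and 241 TPM, and those of SOX17+LSE at 82.1 and 141 TPM. The levels at 96 h overlapped those at 48 h in SOX17+LSE and were above them in BLSE, and only in SOX17+BLSE were both libraries below, by 0.75 ± 0.33 on the log2 scale.

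GATA3, the close relative of GATA2, started higher and moved over a narrower range. Starting cells in DK20FA held 25.6 and 49.2 TPM. In BLSE the libraries stood at 106 and 93.7 TPM at 12 h, and at 147 and 132 TPM at 48 h. SOX17+BLSE went from 67.8 and 65.6 TPM at 12 h to 223 and 211 TPM at 48 h. In SOX17+LSE the libraries stayed between 29.7 and 52.1 TPM from 12 to 48 h and overlapped the starting cells at each of these times. At 96 h BLSE still held 88.8 and 130 TPM of GATA3. SOX17+BLSE held 126 and 127 TPM and SOX17+LSE 36.9 and 61.5 TPM.

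TFAP2A was low at the start, at 2.69 and 1.85 TPM in DK20FA. In SOX17+BLSE it was 7.21 and 7.51 TPM at 12 h, 17.7 and 15.0 TPM at 24 h and 44.2 and 43.2 TPM at 48 h. In BLSE it reached 15.9 and 13.1 TPM at 48 h, and in SOX17+LSE 3.71 and 5.0 TPM. Among the 3 transgenic cultures, SOX17+BLSE was therefore the highest for TFAP2A at 48 h, and the 3 did not overlap. Cultures without the transgenes reached similar levels at 48 h, with 39.0 and 37.8 TPM in BLSE+IWR1 and 23.3 and 47.4 TPM in BLSE+IWR1+BMS. TFAP2A was held at 96 h in SOX17+BLSE, at 37.9 and 44.3 TPM, and in BLSE, at 10.5 and 17.3 TPM. In SOX17+LSE it was higher at 96 h than at 48 h, with 12.4 and 13.7 TPM.

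HAND1 was the most abundant member in the induction cultures from 12 to 48 h and in BLSE at 96 h, a comparison that TPM allows since it is scaled by length. In SOX17+BLSE at 96 h the mean of GATA2 was 209.7 TPM and that of HAND1 95.4 TPM. It was present before induction, at 259 and 426 TPM in DK20FA. BLSE held 1149 and 1193 TPM at 12 h and 1769.6 and 1729 TPM at 48 h. SOX17+BLSE held 680.1 and 611 TPM at 12 h and 1048 and 991 TPM at 48 h. In SOX17+LSE HAND1 was 211 and 178 TPM at 24 h, below both starting libraries, and 521 and 395 TPM at 48 h, overlapping them. In SOX17+BLSE the libraries of 24 h, with 1023 and 794 TPM, overlapped those of 48 h, so no separate peak at 48 h was seen for HAND1 there. At 96 h SOX17+BLSE held 79.8 and 111 TPM, 3.42 ± 0.32 below 48 h (−3.42), and SOX17+LSE held 91.9 and 165 TPM. BLSE at 96 h, which was not sorted, still held 1225 and 1171 TPM.

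ISL1 was at 0 and 0.38 TPM in the starting cells in DK20FA. It reached 6.08 and 6.42 TPM in BLSE at 12 h, 15.9 and 11.6 TPM at 24 h and 28.3 and 32.1 TPM at 48 h, its highest condition. In SOX17+BLSE it was 8.26 and 7.33 TPM at 12 h and 19.2 and 17.6 TPM at 48 h. SOX17+LSE stayed between 2.42 and 3.68 TPM from 12 to 48 h. ISL1 was therefore above the starting cells in all transgenic cultures, and lowest where BMP4 was left out. At 96 h BLSE held 24.2 and 27.5 TPM of it and SOX17+BLSE 11.1 and 14.8 TPM. SOX17+LSE held 7.1 and 8.63 TPM, above its level at 48 h.

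TFAP2B was at the edge of detection. It was listed at 0 in 18 of the 54 libraries, and its highest value was 1.94 TPM, in BLSE+IWR1 at 48 h. SOX17+BLSE at 48 h held 0.96 and 0.92 TPM, and BLSE at 48 h held 0.56 and 0.10 TPM. Its only conditions with a mean above 1 TPM were BLSE+IWR1 at 48 h, with 1.48 and 1.94 TPM, and BLSE+IWR1+BMS at 48 h, with 1.43 and 1.82 TPM.

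**Figure D1:**
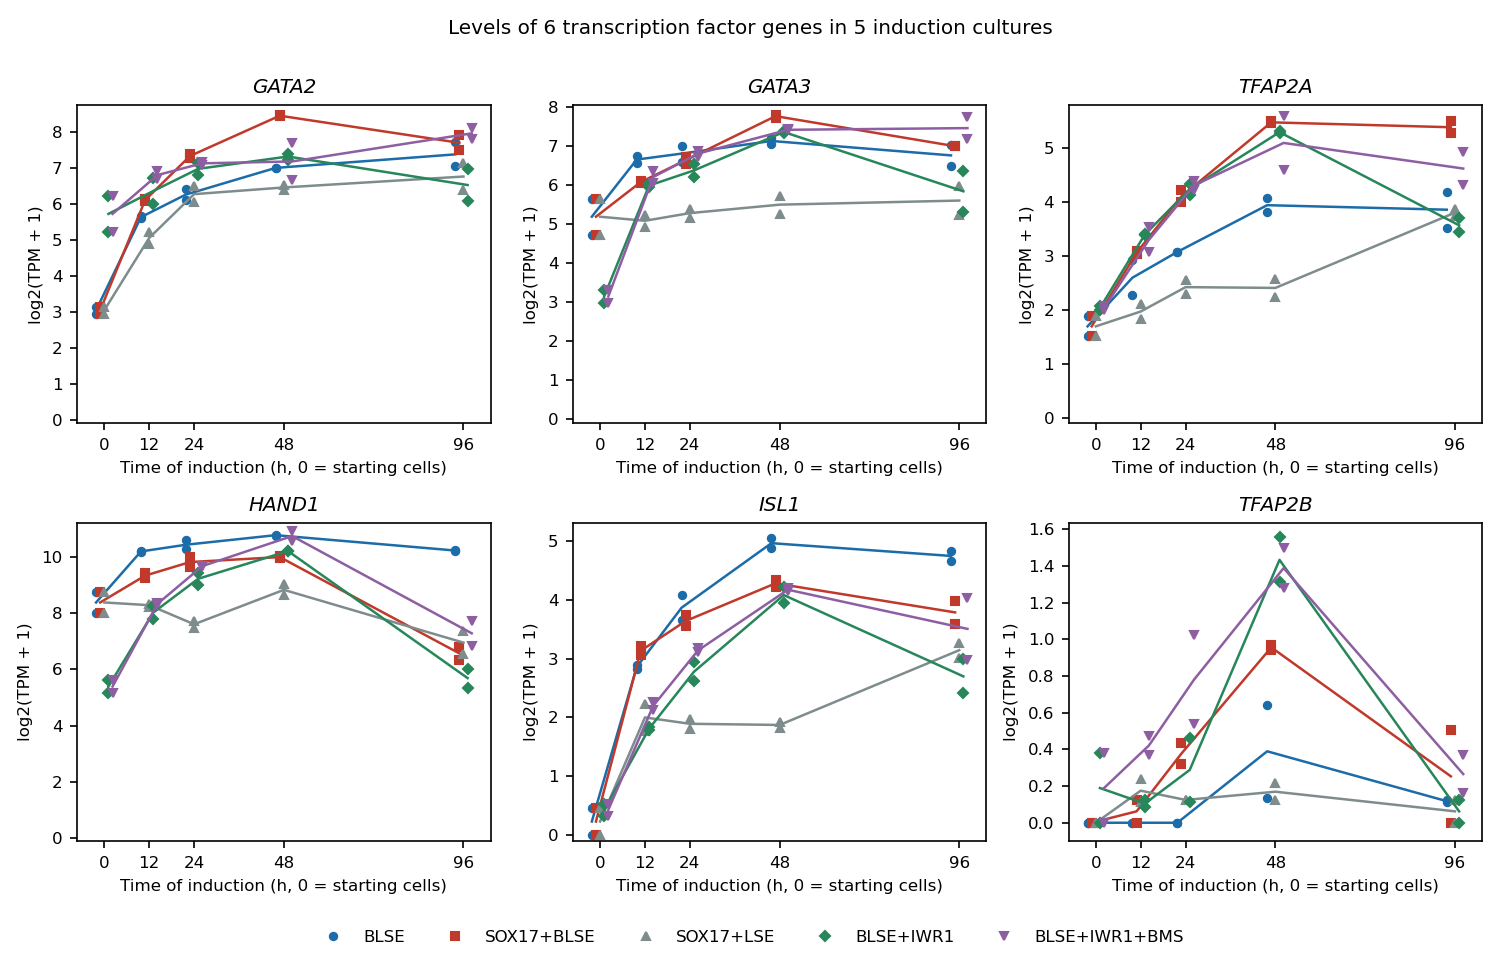
log2(TPM + 1) of the 6 genes (vertical axis, scale differing between panels) against time of induction in hours, with 1 point per library and lines through the means of 2 libraries; time 0 is the transgenic line in DK20FA for BLSE, SOX17+BLSE and SOX17+LSE, and pre-treated cells for the other cultures. Levels without BMP4 (grey) lie below SOX17+BLSE at 24 and 48 h in every panel, HAND1 is lower at 96 h than at 48 h by −1.88 to −4.51 in the sorted cultures and by −0.55 in unsorted BLSE, and GATA2, GATA3, TFAP2A and ISL1 stay well above their starting levels at 96 h in BLSE and SOX17+BLSE.

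The route from cells without the transgenes, which the labels call wild type although they carry the reporters, began from different levels. Pre-treated cells held 73.9 and 36.3 TPM of GATA2, 8.87 and 6.93 TPM of GATA3 and 48.1 and 34.9 TPM of HAND1. TFAP2A stood there at 2.98 and 3.23 TPM and ISL1 at 0.26 and 0.44 TPM. In BLSE+IWR1 at 48 h, GATA3 was 166 and 160 TPM and HAND1 1176 and 1186 TPM, which are 4.22 ± 0.28 and 4.81 ± 0.32 above pre-treated cells. TFAP2A was 39.0 and 37.8 TPM and ISL1 14.4 and 17.6 TPM. GATA2 was 150 and 169 TPM at 48 h, only 1.60 ± 0.33 above its level in pre-treated cells.

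In tdTomato(+) cells of BLSE+IWR1 the 5 detected members were lower at 96 h than in the whole culture at 48 h, but were not silent. GATA2 was 66.9 and 124 TPM, GATA3 38.9 and 81.4 TPM and TFAP2A 9.88 and 12.0 TPM. HAND1 was 40.0 and 64.2 TPM, 4.51 ± 0.32 lower than at 48 h and overlapping pre-treated cells. ISL1 was 4.31 and 6.93 TPM. Day 6 overlapped 96 h for each of these 5 genes. It held 86.0 and 108 TPM of GATA2, 66.6 and 102 TPM of GATA3, 7.26 and 13.6 TPM of TFAP2A, 38.1 and 66.5 TPM of HAND1 and 5.58 and 8.38 TPM of ISL1.

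In the reconstituted ovary GATA2, GATA3 and HAND1 were near 0, and TFAP2A and ISL1 were still detected. GATA2 was 2.2 and 1.34 TPM at day 20, 2.55 and 1.77 TPM at day 40 and 1.11 and 1.47 TPM at day 70. GATA3 was listed at 0 and 0.75 TPM at day 20 and at 0 in all 4 later libraries. HAND1 was listed at 0 and 1.26 TPM at day 20, 0.4 and 0.78 TPM at day 40 and 0 in both libraries at day 70. TFAP2A was at 10.5 and 9.54 TPM at day 20, 12.2 and 10.4 TPM at day 40 and 17.0 and 13.7 TPM at day 70. ISL1 was at 8.09 and 4.36 TPM, 8.58 and 8.23 TPM, and 7.71 and 9.18 TPM on the same days. For each of these 2 genes, both libraries of day 70 stood above both of 96 h. Against day 6 the differences at day 70 were 0.57 ± 0.28 for TFAP2A and 0.26 ± 0.27 for ISL1, so the description of silence up to day 70 did not hold for these genes. Summed over the lists of cell type markers, the 8 amnion markers measured reached 149 to 165 TPM in all at day 70 against 693 to 717 TPM at day 6. This sum includes the keratin KRT18, which was already high in cjESCs in DK20FA, and its share was not separated. DAZL and DDX4, which mark later germ cells, were at 51.9 and 53.9 TPM and at 2.42 and 2.48 TPM at day 70.

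**Figure D2:**
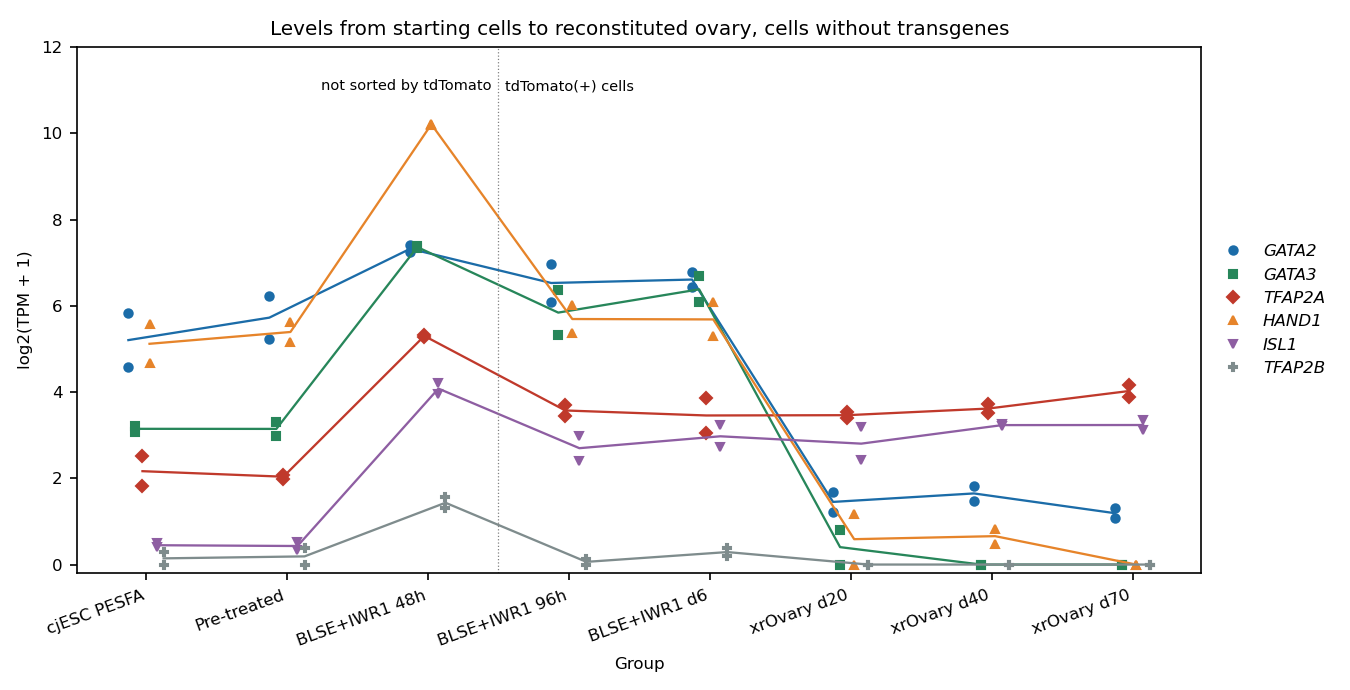
log2(TPM + 1) of the 6 genes (vertical axis) in 8 conditions of the route from cells without the transgenes in order of time, with 1 point per library, lines through the means, and a dotted line where sorting for tdTomato begins. GATA2, GATA3 and HAND1 are near 0 in the reconstituted ovary, while TFAP2A lies between 7.26 and 17.0 TPM and ISL1 between 4.31 and 9.18 TPM from 96 h to day 70, with day 70 above 96 h for both.

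Ordered by mean level, the 27 conditions formed a gradient with few gaps. Of the 26 pairs of neighbours in that order, the libraries did not overlap in 4 pairs for GATA2, 7 for GATA3, 2 for TFAP2A, 6 for HAND1 and 5 for ISL1, and the other neighbours did not differ beyond the spread of their libraries. SOX17+BLSE at 48 h stood first for GATA2, GATA3 and TFAP2A, separate from the next condition for GATA2 only. BLSE at 48 h stood first for HAND1 and ISL1, and only for ISL1 was it separate from the next, BLSE at 96 h. The reconstituted ovary held the last 3 places for GATA2, GATA3 and HAND1. For TFAP2A the last place was taken by cjESCs in DK20FA at 2.27 TPM, and day 70 stood in the upper part of the order at 15.3 TPM.

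Across the 27 condition means, GATA2 and GATA3 had r = 0.91 and GATA3 and HAND1 r = 0.90, while TFAP2A and ISL1 had r = 0.78 and TFAP2A and HAND1 r = 0.14. By Spearman's rho, GATA2 and TFAP2A had 0.73 (r = 0.42) and GATA2 and HAND1 0.51 (r = 0.78). TFAP2A and ISL1 had a rho of 0.78, and TFAP2A and HAND1 0.24. These values describe 27 points, many of which are stages of the same culture. Among 10876 other named genes, those with the highest r to GATA2 were SAT2 (0.93), GATA3 (0.91) and the BMP antagonist CHRD (0.91). For GATA3 they were TMUB1 (0.94), PRKCH (0.94) and FRRS1 (0.94), and for HAND1 FRRS1 (0.97), OBSL1 (0.96) and KLF6 (0.96). For TFAP2A they were EDNRB, the endothelin receptor of neural crest (0.92), the epithelial factor GRHL1 (0.87) and JTB (0.80). ISL1 was most like ATOX1 (0.83), LANCL2 (0.82) and SLC45A3 (0.82), with lower values than GATA2, GATA3 and HAND1 had to their nearest genes. For TFAP2B they were DLX6 (0.85), TNFRSF10A (0.85) and POU3F2 (0.84). TFAP2B reached the filter in 1 library only and was 0 in 18, so these values carry little weight. By Spearman's rho the same genes ranked 62, 147 and 87.

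Before induction, 3 members differed between the starting cells. GATA2 was higher in the cells without the transgenes in PESFA, with 56.1 and 22.8 TPM against 7.84 and 6.69 TPM in the transgenic line in DK20FA (2.16 ± 0.33, adjusted p = 4.93e-06, limma). GATA3 was lower, with 8.33 and 7.41 TPM (−2.04 ± 0.28, adjusted p = 6.07e-07, limma), and so was HAND1, with 46.6 and 24.3 TPM (−3.26 ± 0.32, adjusted p = 5.11e-10, limma). No library of these 3 genes overlapped between the groups, and the share of all genes without overlap was not counted. Of all genes, 16.8% passed in this comparison, in which the line and the medium cannot be told apart. The summed level of 5 fibroblast markers also differed, with 1635 to 2873 TPM in PESFA and 192 to 211 TPM in DK20FA. Both groups had been sorted for TRA-1-60, and the part of these markers in the result was not tested. Pre-treatment for 24 h gave calls for 0 of the 6 members in limma beside 0.304% of all genes. An unadjusted p under 0.05 was seen for 0 members, and the share of all genes at that level was not counted.

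By 12 h, members had risen in every culture, with different members called. The differences between cultures in this step were not tested, and the comparisons share their starting groups. The description of the members named a peak at 48 h, and this step is part of that rise. The counts of members called here are therefore not independent of the description. In BLSE, GATA2 (2.59 ± 0.33), GATA3 (1.46 ± 0.28), HAND1 (1.81 ± 0.32) and ISL1 (2.63 ± 0.27) were higher than in cjESCs in DK20FA, 4 of 6 members beside 4.23% of all genes. The calls of GATA3 and HAND1 were lost without cjESC replicate 1 (adjusted p = 0.0474 and 0.0129, limma), which leaves 2. In SOX17+BLSE, GATA2 (3.07 ± 0.33), ISL1 (2.90 ± 0.27) and TFAP2A (1.37 ± 0.28) were higher, 3 of 6 beside 5.89%. The call of TFAP2A was lost there without cjESC replicate 2 or SOX17+BLSE replicate 2 (highest adjusted p = 0.0175, limma), which leaves 2. GATA3 at 0.89 ± 0.28 and HAND1 at 0.95 ± 0.32 did not pass there. In SOX17+LSE, GATA2 (2.01 ± 0.33) and ISL1 (1.77 ± 0.27) were higher even though no BMP4 was added, 2 of 6 beside 5.25%. GATA3 and HAND1 differed there from the starting cells by −0.10 ± 0.28 and −0.10 ± 0.32.

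From pre-treated cells the members called by 12 h were GATA3, HAND1, TFAP2A and ISL1. Here too sorted cells were set against whole cultures in another medium, and the counts are not independent of the description. In BLSE+IWR1 GATA3 went from 8.87 and 6.93 TPM to 63.9 and 61.2 TPM (2.84 ± 0.28) and HAND1 from 48.1 and 34.9 TPM to 305 and 221 TPM (2.63 ± 0.32). TFAP2A was 9.55 and 9.57 TPM (1.36 ± 0.28) and ISL1 2.44 and 2.57 TPM (1.38 ± 0.27). These 4 of 6 stand beside 1.97% of all genes, and the same 4 members were called in BLSE+IWR1+BMS beside 2.86%, with differences of 3.06, 2.94, 1.27 and 1.77 in the same order. The call of TFAP2A was lost without 2 of the 4 libraries in BLSE+IWR1 and without 3 of 4 in BLSE+IWR1+BMS (highest adjusted p = 0.0116 and 0.0704, limma). GATA2 missed the threshold in both, at 0.64 ± 0.33 and 1.08 ± 0.33. The fibroblast markers moved too, from 2426 to 4622 TPM in pre-treated cells to 115 to 194 TPM in BLSE+IWR1 at 12 h, and their part was not tested.

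Leaving out BMP4 in the presence of SOX17 gave lower levels of most members at 24 and 48 h. At 12 h, 0 of 6 passed in limma beside 0.277% of all genes, although 5 had an unadjusted p under 0.05. The differences of SOX17+BLSE over SOX17+LSE at 12 h were 1.05 ± 0.33 for GATA2, 0.99 ± 0.28 for GATA3, 1.09 ± 0.28 for TFAP2A, 1.05 ± 0.32 for HAND1 and 1.13 ± 0.27 for ISL1. The libraries of these 5 genes did not overlap between the cultures. With 2 libraries against 2, an exact permutation test of such a separation cannot go below p = 0.33. The shares of all genes without overlap, or with an unadjusted p under 0.05, were not counted. At 24 h, HAND1 held 1023 and 794 TPM with BMP4 and 211 and 178 TPM without it (2.21 ± 0.32, adjusted p = 1.05e-05, limma). ISL1 held 12.3 and 10.7 TPM against 2.49 and 2.95 TPM (1.75 ± 0.27), TFAP2A 17.7 and 15.0 TPM against 3.89 and 4.9 TPM (1.68 ± 0.28) and GATA3 105 and 92.7 TPM against 34.9 and 41.2 TPM (1.36 ± 0.28). These 4 of 6 members compare with 1.56% of all genes called higher. The call of GATA3 was lost when any of the 4 libraries was left out (adjusted p from 0.0105 to 0.0475, limma). GATA2, at 167 and 154 TPM against 65.6 and 89.0 TPM, did not overlap and did not pass (1.06 ± 0.33, adjusted p = 0.0565, limma).

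At 48 h every member passed with higher levels where BMP4 was present, 6 of 6 beside 4.61% of all genes. The study had already named GATA2, GATA3 and TFAP2A from this comparison, and the description of the members named 48 h. The counts of members in this comparison, at the other times too, are therefore not independent of that choice. TFAP2A differed most (3.07 ± 0.28, adjusted p = 4.83e-10, limma), from 3.71 and 5.0 TPM to 44.2 and 43.2 TPM. ISL1 differed by 2.41 ± 0.27, GATA3 by 2.27 ± 0.28 and GATA2 by 1.997 ± 0.33, and these calls held without each library in turn. HAND1 was close to the threshold (1.16 ± 0.32, adjusted p = 0.00968, limma), as was TFAP2B (0.79 ± 0.20, adjusted p = 0.00472, limma), and both lost the call when any of the 4 libraries was left out. HAND1 also lost it with the replicate block, median-ratio scaling, unfiltered genes, a smaller pseudocount (0.1) or no intensity trend. At 96 h, in tdTomato(+) cells of both cultures, TFAP2A (1.59 ± 0.28, adjusted p = 0.000107, limma) and GATA3 (1.39 ± 0.28, adjusted p = 0.000538, limma) were higher with BMP4, 2 of 6 beside 2.55%. GATA3 lost its call without SOX17+LSE replicate 1 (adjusted p = 0.047, limma), which leaves 1. GATA2 differed by 0.94 ± 0.33, ISL1 by 0.64 ± 0.27 and HAND1 by −0.38 ± 0.32, none of which passed.

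The size of the difference itself changed with time for 2 members. For TFAP2A it was larger at 48 h than at 12 h by 1.98 ± 0.40 (adjusted p = 0.00226, limma), the only member called of 6 beside 0.831% of all genes. For ISL1 it was smaller at 96 h than at 48 h by −1.76 ± 0.38 (adjusted p = 0.00289, limma), again 1 of 6, beside 2.04%. The call of TFAP2A was lost without 5 of the 8 libraries and that of ISL1 without 6 of 8 (highest adjusted p = 0.023 and 0.028, limma). TFAP2A at −1.49 ± 0.40 and HAND1 at −1.55 ± 0.45 for 96 h against 48 h did not pass.

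**Figure D3:**
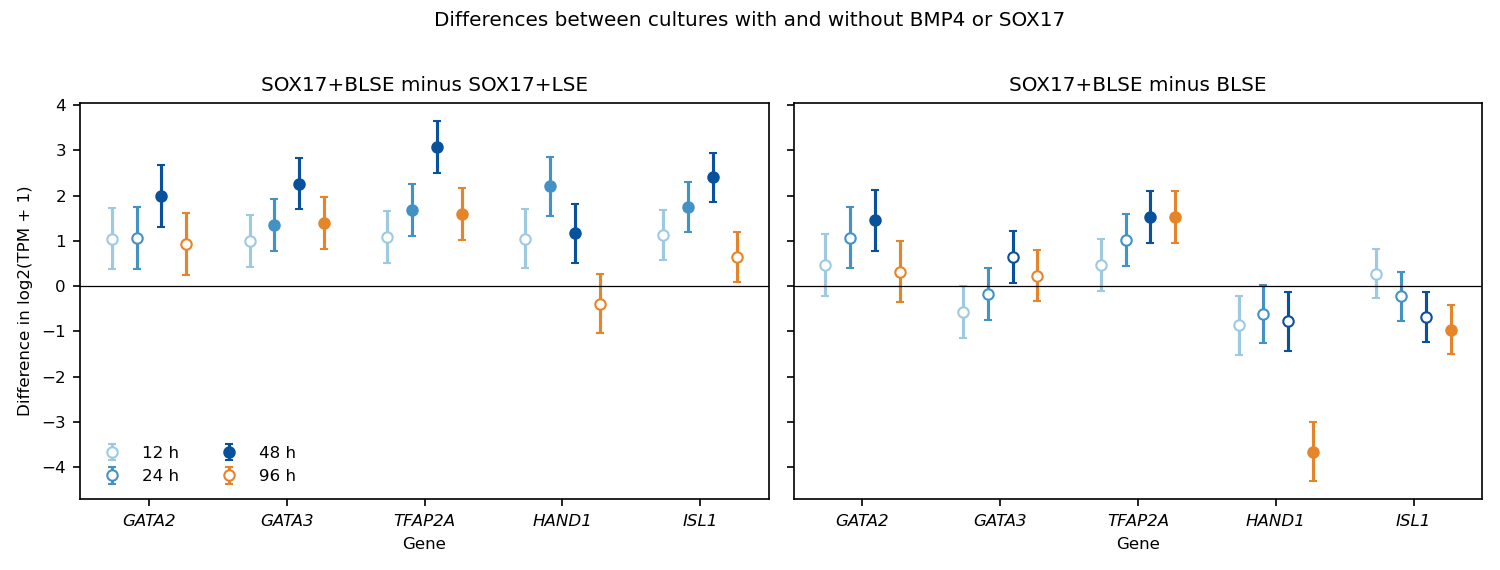
Differences in log2(TPM + 1) for 5 genes (horizontal axis) at 12, 24, 48 and 96 h, with points for the estimate, bars for its 95% confidence interval and filled points where the adjusted p is under 0.01. Left, SOX17+BLSE minus SOX17+LSE is above 0 for all 5 genes up to 48 h. Right, SOX17+BLSE minus BLSE, a difference that includes dexamethasone, is above 0 for GATA2 and TFAP2A at each time. It falls to −3.66 for HAND1 at 96 h, where BLSE was not sorted.

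Among direct targets of BMP signaling, calls were made from 12 h on in the same comparison. The study had named ID1, ID4 and MSX2 from it too, so these counts are not independent of that choice. Of 9 targets measured (ID1, ID3, ID4, SMAD6, SMAD7, BAMBI, MSX1, MSX2 and DLX5), 7 were higher with BMP4 at 12 h, 9 at 24 h, 8 at 48 h and 3 at 96 h, and none was lower. Their median difference was 1.80 at 12 h and 1.99 at 24 h, beside 0.01 and −0.04 over all genes. At 24 h the homeobox genes MSX1 (3.51 ± 0.40) and MSX2 (3.35 ± 0.22), the HLH inhibitor ID4 (2.80 ± 0.22) and the pseudoreceptor BAMBI (2.14 ± 0.18) differed most. At 48 h DLX5 (4.44 ± 0.31) and MSX1 (3.68 ± 0.40) led. Of the 14 ligands, receptors, SMADs and antagonists of the pathway, 0 were called at 12 h in limma. Only NOG, a secreted antagonist, was higher at 24 h (3.34 ± 0.36), and BMP7 (−1.25 ± 0.24) and BMP4 (−1.16 ± 0.19) were lower at 48 h. At 96 h BMP2 (−2.09 ± 0.38), FST (−1.88 ± 0.32) and BMP7 (−1.35 ± 0.24) were lower in the culture with BMP4.

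Other genes of the members' families went different ways in this comparison. Of 5 relatives that passed the filter, 3 were higher and 1 lower at 48 h: TFAP2E (1.72 ± 0.30, 3.06 against 0.175 TPM on average), HAND2 (1.64 ± 0.29), the germ cell AP-2 factor TFAP2C (0.91 ± 0.18) and GATA6, a factor of endoderm and mesoderm (−1.55 ± 0.33). At 96 h GATA6 was again lower (−1.97 ± 0.33) and no other relative was called. Of 10 partner proteins, KCTD15, an inhibitor of AP-2 factors, was higher at 12 h (0.72 ± 0.15) and at 24 h (0.62 ± 0.15), and 0 were called at 48 and 96 h in limma.

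With SOX17 activated beside BMP4, GATA2 and TFAP2A were higher at 48 h, and no other member was called at that time. This comparison shares SOX17+BLSE with the preceding one. The study had already named GATA2 and HAND1 from these cultures, and the description of the members named 48 h. The counts of members in this comparison, at 96 h too, are therefore not independent of that choice. Dexamethasone was given only to activate SOX17, so SOX17 and dexamethasone cannot be told apart at any time. At 12 h 0 of 6 passed in limma beside 2.4% of all genes called, and 2 members had an unadjusted p under 0.05. The share of all genes with an unadjusted p under 0.05 was not counted, here or at later times. HAND1 was then at −0.86 ± 0.32 and GATA3 at −0.57 ± 0.28. At 24 h 0 of 6 passed in limma beside 7.56% called, and 2 members had an unadjusted p under 0.05. TFAP2A stood just outside the threshold there (1.03 ± 0.28, adjusted p = 0.0101, limma), and GATA2 at 1.07 ± 0.33 (adjusted p = 0.0254, limma). At 48 h TFAP2A, with 44.2 and 43.2 TPM against 15.9 and 13.1 TPM in BLSE, was higher by 1.54 ± 0.28 (adjusted p = 5.71e-05, limma). GATA2, with 347 and 354 TPM against 127 and 128 TPM, was higher by 1.45 ± 0.33 (adjusted p = 0.00101, limma). These 2 of 6 stand beside 10.3% of all genes called higher, and the call of GATA2 was lost when any of the 4 libraries was left out (adjusted p from 0.0104 to 0.0129, limma), which leaves 1. GATA3 was at 0.64 ± 0.28, HAND1 at −0.78 ± 0.32 and ISL1 at −0.68 ± 0.27, none past the threshold. The increase of the SOX17 difference from 12 to 48 h gave 0 calls of 6 in limma beside 2.46% called. For 4 members the unadjusted p was under 0.05.

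At 96 h the SOX17 comparison set tdTomato(+) cells against the whole BLSE culture, and 45.4% of all genes were called. HAND1 was lower in the sorted cells by 3.66 ± 0.32 on the log2 scale (−3.66, adjusted p = 2.82e-12, limma), ISL1 by 0.96 ± 0.27 (−0.96, adjusted p = 0.00246, limma), and TFAP2A was higher by 1.53 ± 0.28 (adjusted p = 1.66e-05, limma). GATA2 differed by 0.32 ± 0.33. ISL1 lost its call without BLSE replicate 2 or SOX17+BLSE replicate 1 (highest adjusted p = 0.052, limma). All 8 amnion markers and all 7 mesoderm markers measured were lower in the sorted cells as well, with list medians of −2.68 and −3.59 beside 0.24 over all genes. Germ cell markers were higher for 4 of 6. The part of the sort in the values of the members was not tested.

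Against BLSE, the route with IWR1 had lower HAND1 and ISL1 at 12, 24 and 96 h and higher TFAP2A at 24 and 48 h. Line, medium, pre-treatment and IWR1 differ together here and cannot be told apart. At 12 h HAND1 (−2.17 ± 0.32, adjusted p = 2.27e-06, limma) and ISL1 (−1.05 ± 0.27, adjusted p = 0.00341, limma) were lower, 2 of 6 beside 7.92% of all genes called lower. ISL1 lost the call when any of the 4 libraries was left out, which leaves 1. At 24 h HAND1 (−1.21 ± 0.32) and ISL1 (−1.09 ± 0.27) were lower and TFAP2A higher (1.16 ± 0.28), 3 of 6 beside 14.6%. Without BLSE replicate 1 none of the 3 passed, and without BLSE replicate 2, BLSE+IWR1 replicate 1 and BLSE+IWR1 replicate 2 the count was 1, 2 and 1. At 48 h TFAP2A was higher (1.35 ± 0.28, adjusted p = 0.000246, limma). TFAP2B was called too, at 1.04 ± 0.20, but it passed the filter only through this condition, so its call carries no weight, and it was lost without BLSE replicate 2, which leaves 1 of the 2 calls. All genes called higher made up 11.2%. HAND1 (−0.57 ± 0.32), GATA2 (0.32 ± 0.33) and GATA3 (0.23 ± 0.28) did not pass, nor did ISL1 (−0.88 ± 0.27, adjusted p = 0.01004, limma). At 96 h, sorted against unsorted, HAND1 (−4.53 ± 0.32), ISL1 (−2.05 ± 0.27) and GATA3 (−0.92 ± 0.28) were lower, 3 of 6 beside 17% of all genes. GATA3 lost its call without BLSE replicate 2 or BLSE+IWR1 replicate 1. TFAP2A at −0.29 ± 0.28 and GATA2 at −0.85 ± 0.33 did not pass. Marker lists differed in the same comparison. Of 4 pluripotency markers, 4 were higher in the IWR1 route at 12, 24 and 48 h each and 3 at 96 h. Of 7 mesoderm markers 4, 4, 5 and 6 were lower at 12, 24, 48 and 96 h, and of 8 amnion markers 4, 4, 2 and 8, with none higher in either list. Their part in the values of the members was not tested.

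Adding BMS493 to BLSE+IWR1 left the members without a call up to 48 h. In limma 0 of 6 passed at 12, 24 and 48 h beside 0%, 0.0893% and 4.83% of all genes called. The unadjusted p was under 0.05 for 0, 1 and 0 members, and the share of all genes at that level was not counted. At 48 h the 95% interval of the difference was −0.82 to 0.54 for GATA2, −0.52 to 0.63 for GATA3, −0.77 to 0.37 for TFAP2A, −0.12 to 1.18 for HAND1 and −0.46 to 0.64 for ISL1. The libraries with BMS493 spread widely for TFAP2A, with 23.3 and 47.4 TPM, and for GATA2, with 100 and 208 TPM. At 96 h, in tdTomato(+) cells of both cultures, GATA3 held 213 and 144 TPM with BMS493 against 38.9 and 81.4 TPM without it (1.62 ± 0.28, adjusted p = 0.00079, limma). HAND1 held 212 and 113 TPM against 40.0 and 64.2 TPM (1.59 ± 0.32, adjusted p = 0.00297, limma). These 2 of 6 compare with 0.438% of all genes called higher. Both calls were lost without BLSE+IWR1 replicate 1 and without BLSE+IWR1+BMS replicate 1 (0 calls), and without BLSE+IWR1+BMS replicate 2 the count was 3. GATA2, at 278 and 223 TPM against 66.9 and 124 TPM, did not pass (1.44 ± 0.33, adjusted p = 0.0133, limma). Nor did TFAP2A at 1.05 ± 0.28 and ISL1 at 0.81 ± 0.27. Among the amnion markers TBX3 (1.75 ± 0.29) and HEY1 (0.97 ± 0.19) were higher and VTCN1, an immune checkpoint ligand of amnion and trophoblast, was lower (−1.64 ± 0.35). Of the BMP targets only SMAD6 was called (1.29 ± 0.21).

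Whether the cultures were amnion-like was checked against 12 listed amnion markers, of which 8 were measured, and the others (WNT6, IGFBP5, ITGB6 and KRT7) were not used here. The defining marker VTCN1 was at 0.13 and 0.47 TPM in cjESCs in DK20FA, 13.7 and 13.5 TPM in BLSE at 48 h, and 44.4 and 52.0 TPM in BLSE at 96 h. GABRP, a receptor subunit of amniotic epithelium, was at 2.4 and 1.53 TPM in BLSE at 48 h and at 8.7 and 14.9 TPM at 96 h, but at 0.41 and 0.8 TPM in SOX17+BLSE at 48 h. The keratin KRT18 was at 4913 and 4769.65 TPM already in the starting cells, above its 4265 and 4480 TPM in BLSE at 48 h, so that the summed level of the list, 5095 to 5145 TPM in cjESCs in DK20FA and 5175 to 5476 TPM in BLSE at 48 h, hardly separates them. In the same BLSE libraries at 48 h, mesoderm markers were also present, with FOXF1 at 114 TPM, TBX4 at 138 TPM and TBX20 at 62.8 TPM on average. VTCN1 and GABRP were below these 3 genes at 48 h, but TBX3 at 205 TPM and HEY1 at 178 TPM, also on the amnion list, were above them. So was BMP4 at 513 TPM, which is on both the amnion and the mesoderm list. The other markers of the mesoderm list were not set beside them. The genes are called here by name rather than by tissue.

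When BMP4 was left out, marker lists of other cell types held calls in both directions. At 48 h, 3 of 8 amnion markers were higher with BMP4 (VTCN1 by 2.30 ± 0.35, TBX3 by 1.32 ± 0.29 and KRT18 by 0.53 ± 0.14) and BMP4 itself was lower. Of 6 trophoblast markers 3 were higher (VGLL1 by 3.44 ± 0.44, GCM1 by 2.90 ± 0.41 and TP63 by 1.43 ± 0.25) and SDC1 was lower (−0.72 ± 0.16). Of 7 mesoderm markers TBX20 (3.67 ± 0.38), TBX4 (2.27 ± 0.35) and HAND2 (1.64 ± 0.29) were higher and GATA6 and BMP4 were lower. The list medians were 0.27, 0.85 and 0.68, beside 0.00 over all genes. The summed level with BMP4 was higher for the amnion list (3856 to 3967 TPM against 2760 to 2799 TPM), overlapped for the trophoblast list (249.9 to 274 TPM against 269 to 315 TPM) and was lower for the mesoderm list (345 to 365 TPM against 524 to 646 TPM). The amnion sum includes KRT18, which was already high before induction, and its share was not separated. The part of these cell types in the values of the members was not tested.

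**Figure D4:**
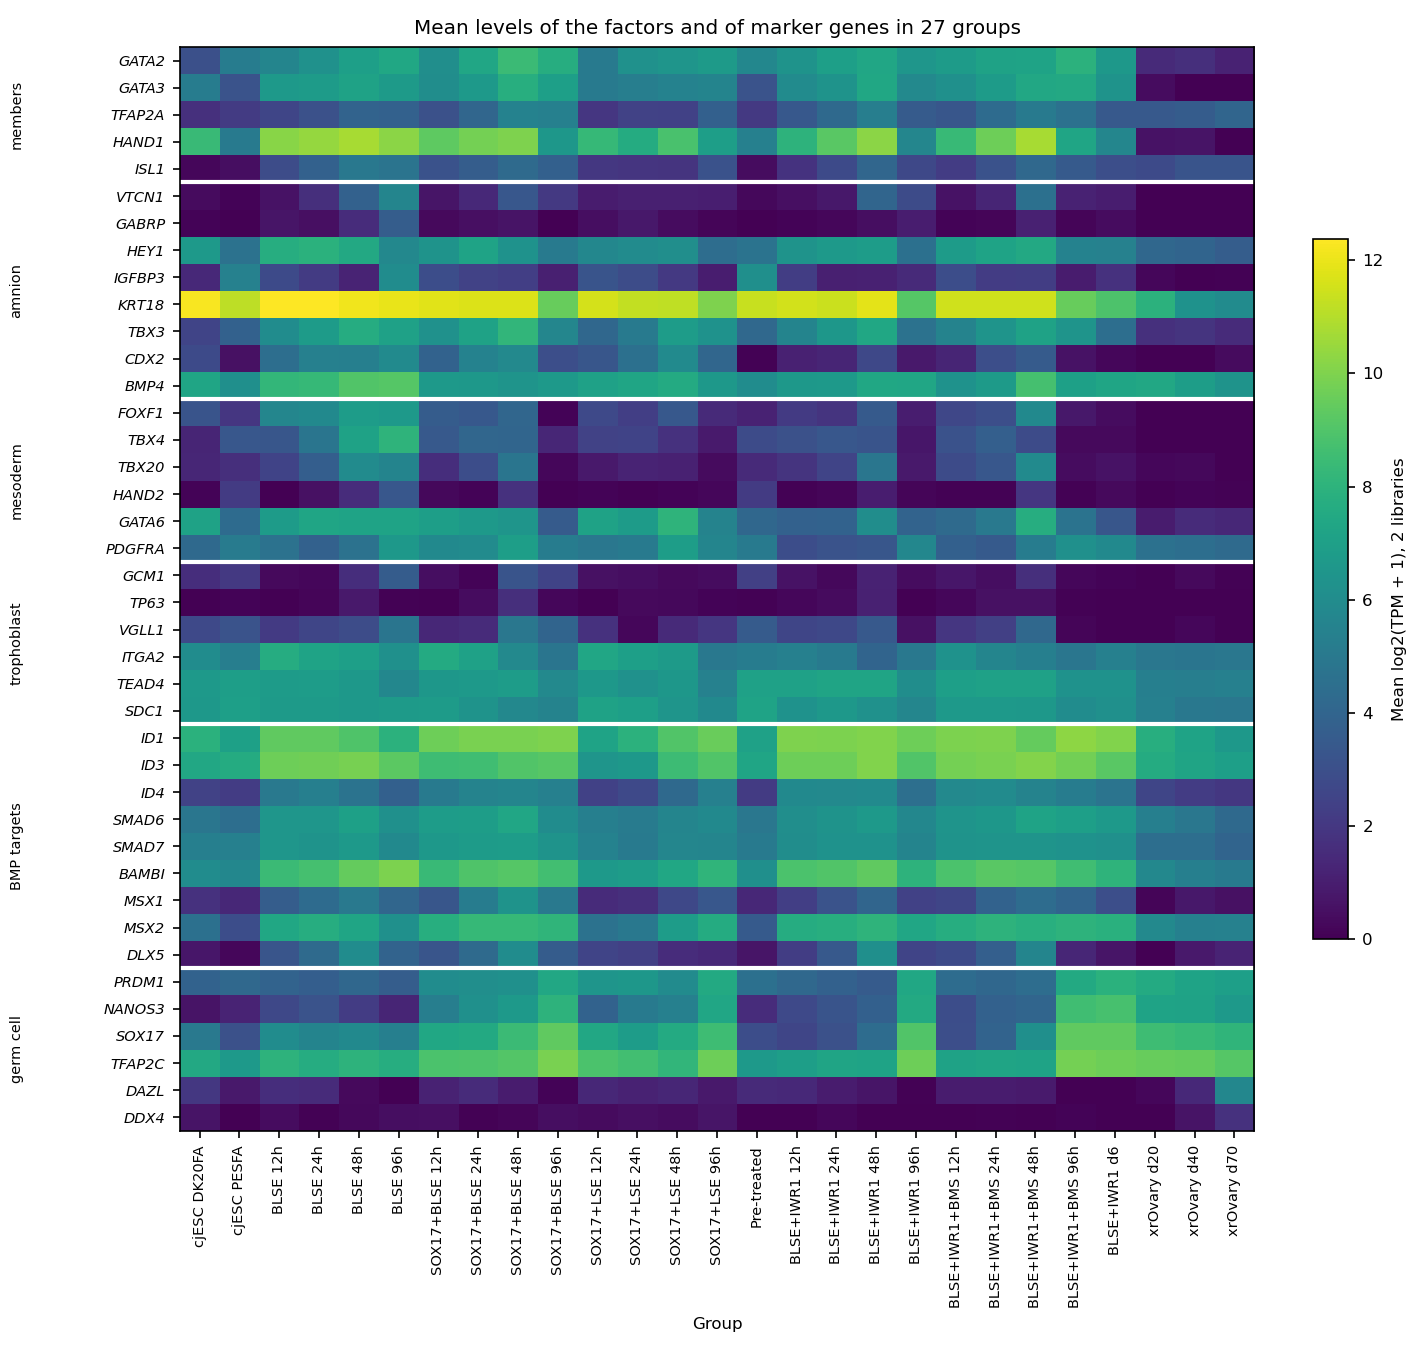
Mean log2(TPM + 1) over 2 libraries (colour) of 5 members and of marker genes of amnion, mesoderm, trophoblast, BMP response and germ cells (rows) in 27 conditions (columns). GATA2, GATA3 and HAND1 are dark in the last 3 columns, where TFAP2A and ISL1 keep an intermediate colour, and VTCN1 is brightest in BLSE at 96 h.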

How the data were processed

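Single-end poly(A) RNA-seq of marmoset cells, sorted or from whole cultures, was examined in 54 libraries of 27 conditions, with 2 biological duplicates each. The authors aligned reads with STAR to the marmoset assembly cj1700_1.1, filtered alignments by mapping quality, quantified them with RSEM, kept genes with a human counterpart, and deposited gene levels as TPM. Counts and depth are not in the table, so no counting interval is given, and the study's edgeR test on counts was replaced by limma 3.58.1 in R 4.3.3.

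TPM were taken as log2(TPM + 1), with the filter of the study's methods, a log2 value of at least 1.5 in 1 library (11197 of 14812 genes). The fit had 1 mean per condition over all 54 libraries (27 residual degrees of freedom) with an intensity trend, and Benjamini-Hochberg adjustment over 11197 genes, with calls at an adjusted p under 0.01. An exact permutation test of 2 against 2 cannot go below p = 0.33. The fit was tested on simulated data. P-values measure the spread between duplicate cultures of 1 cell line.

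Groups follow the sample labels. The members, the comparisons and the lists of marker and pathway genes were chosen with earlier results of these data known. Genes were named by rule: the members, the 3 genes most like each, and of each list at most 4 called genes in each direction with the largest differences, with defining markers by their level. SOX17, FOXF1 and the germ cell genes DAZL and DDX4 were added after their values were seen. Likeness is Pearson's r of condition means. All 6 gene identifiers matched the RefSeq gene table. No sequence or coordinate was used here. For the trophoblast list, 1 marker was left out of all counts and is not reported here.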

Additional observations from a re-analysis of the deposited data

Results flagged for a closer look

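The difference between SOX17+BLSE and SOX17+LSE changed with time for 2 members, by limma's test of the change itself. For TFAP2A it was larger at 48 h than at 12 h by 1.98 ± 0.40 (adjusted p = 0.00226, limma), with 44.2 and 43.2 TPM against 3.71 and 5.0 TPM at 48 h and 7.21 and 7.51 TPM against 2.58 and 3.3 TPM at 12 h. For ISL1 it was smaller at 96 h than at 48 h, a change of −1.76 ± 0.38 (adjusted p = 0.00289, limma), with 11.1 and 14.8 TPM against 7.1 and 8.63 TPM at 96 h and 19.2 and 17.6 TPM against 2.81 and 2.52 TPM at 48 h. The cells of 96 h were sorted for tdTomato and those of 48 h were not, and the part of the sort was not tested. With 2 libraries per condition, single outlying libraries were not looked for.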

How the results depend on the processing

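Of 91 differences of members named in the text, 51 of them calls, no call changed its direction under any alternative. Quantile normalization ended 0 calls and added 1, and the replicate block, no filter on low values and no intensity trend each ended 1 (the last added 1), as did median-ratio scaling, which added 3. A pseudocount of 0.1 ended 17, the 4-fold rule 31 and a fit on only the libraries compared 48, where 2 conditions leave few residual degrees of freedom (it added 1). Leaving out single libraries gave 404 results for the named differences, in which a call was lost in 58 and gained in 4. The 404 include differences that were not calls to begin with and so could not lose one. Median-ratio scaling and quantile normalization moved the median difference of all genes by up to 0.24 and 0.20.

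The larger changes in counts of members called are listed here and, for single libraries left out, in the next paragraph. Smaller ones, such as the loss of a single call among several, are left out of both. With a pseudocount of 0.1 they were 2 and 1 for BMP4 at 24 and 96 h, 0 for BMS493 at 96 h, 1 for the IWR1 route at 12, 24 and 48 h each, 2 for the onset in BLSE and 0 for both changes of the BMP4 difference with time. With the 4-fold rule they were 1, 3 and 0 for BMP4 at 24, 48 and 96 h, 0 and 1 for SOX17 at 48 and 96 h, 0 for BMS493 at 96 h, 1, 0 and 0 for the IWR1 route at 12, 24 and 48 h, 1 for the onset in SOX17+LSE and 2 for the onset in BLSE and in both cultures with IWR1, and 0 for both changes with time. With only the libraries compared they were 0 for BMP4 at 24, 48 and 96 h, 1 for SOX17 at 96 h, 0 for BMS493 at 96 h, 0, 0, 0 and 1 for the IWR1 route at 12, 24, 48 and 96 h, 0 for medium and line, 0 for each of the 5 onsets, 0 for both changes of the BMP4 difference with time, and 1 for the change of the SOX17 difference from 12 to 48 h. The cause of the changes was not tested.

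Without each library in turn the counts ranged from 1 to 2 for BMP4 at 96 h, 0 to 3 for BMS493 at 96 h, 1 to 1 for the IWR1 route at 12 h, 0 to 2 at 24 h and 1 to 2 at 48 h, 1 to 1 for SOX17 at 48 h, 2 to 4 for the onset in BLSE and 0 to 1 for both changes of the BMP4 difference with time. Differences that missed the threshold and changed sign ranged from −0.013 to 0.66 for GATA2 and SOX17 at 96 h, −0.80 to 0.035 for HAND1 and BMP4 at 96 h, −0.62 to 0.045 for TFAP2A and the IWR1 route at 96 h, −0.085 to 0.31 for HAND1 in the change of the BMP4 difference from 12 to 48 h, and −0.56 to 0.35 and −0.45 to 0.26 for the onset of GATA3 and HAND1 in SOX17+LSE.

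Replicate numbers were not taken as pairs. Deviations of same-numbered libraries correlated between −0.27 and 0.29 over 351 pairs of conditions (median 0.01), with 41 pairs over 0.1. With the replicate block the adjusted p of HAND1 for BMP4 at 48 h passed 0.01, which left 5 of 6 calls, and no other call changed. By Spearman's rho in place of r, 0, 0, 2, 1, 1 and 0 of the 3 genes most like GATA2, GATA3, TFAP2A, HAND1, ISL1 and TFAP2B stayed among the first 3.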
